A study of Mus musculus with 10 samples.

Results

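Heat shock proteins and their chaperone partners were examined in the visual cortex of young mice after the loss of one eye. The set held every gene on the array whose symbol begins with Hsp (without the matrix gene Hspg2), Dnaj, Cct and a digit, Pdia or Bag, together with Calr, Canx and Tcp1. It comprised 98 probe sets for 66 genes, of 12422 non-control probe sets and 8251 genes with a probe set of 1 symbol. The rule for members used gene names only, but it was written with earlier results of these data known. Where a gene had several probe sets, the brightest on average over the 10 arrays stood for it.

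The mice were wild-type C57Bl6 animals that lost one eye at postnatal day 14 and were killed at postnatal day 18, which is 4 days later. Visual cortex on the side opposite the lost eye gave the 5 deprived samples (contralateral), and cortex on the same side gave the 5 non-deprived samples (ipsilateral), so both groups came from operated mice and no intact control was included. The samples are described as pools, the protocol speaks of 4 mice, and how those animals were divided over the 10 samples is not given in the sources used here, so the p-values measure the spread between these samples, which may be technical. Each sample was hybridised to 1 Affymetrix array, and the values are MAS5 signals in arbitrary units, deposited on a common scale with nearly the same trimmed mean on every array. Differences are deprived minus non-deprived on the scale log2(signal + 16), fitted with limma across all 7453 probe sets above a filter on dim signals.

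Chaperones bind unfolded or partly folded proteins and help them to fold, to cross membranes or to be degraded. HSP70 proteins work in cycles with J-domain proteins, which bring substrates and trigger ATP hydrolysis, and with exchange factors such as the HSP110 and BAG proteins, which release the nucleotide; HSP90 and the ring-shaped chaperonins fold further clients. Some members are made at all times and others are induced, the cytosolic ones by the heat shock factor HSF1 and those of the endoplasmic reticulum (ER) by the unfolded protein response. In neurons, constitutive Hspa8 with its J-domain partners is known for removing clathrin from synaptic vesicles and for keeping vesicle proteins folded.

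No chaperone gene reached the adjusted threshold of 0.05 in limma, and neither did any other tested probe set (0% of 7453). The smallest adjusted p among the members was 0.992. The cytosolic HSP70 genes Hspa1a and Hspa14 and the J-domain gene Dnajb1 had lower means in deprived cortex at an unadjusted p under 0.05, and the small heat shock gene Hspb2 and the chaperonin gene Cct6b had higher means. These 5 genes are 8.33% of the 60 genes that could be tested, against 4.79% of all tested probe sets. Hspa14 and Cct6b were dim and passed the filter through the group in which they were higher. By direction, 3 of the 60 genes were lower, against a background of 2.36%, and 2 of the 60 were higher, against 2.43%. Over the 60 genes the median log2 difference was -0.061, against 0.0066 over all tested probe sets, and 35 genes (58.3%) lay below 0, against 48.0% of all probe sets. The differences ran from -0.85 for Dnajb5 to 0.48 for Cct6b. The filter left out 6 members, namely Calr, Pdia5, Dnajb3, Dnajb8, Hspb1 and Hspb11. The count of lower genes was set by single arrays: it was 5 without deprived replicate 3 and 1 without any one of deprived replicate 4 and non-deprived replicates 1, 3 and 5. The background share was not counted in these fits. The median was -0.030 without deprived replicate 3. With the probe sets of each gene averaged it was -0.037, and over every tested member probe set it was -0.054.

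**Figure D1:**
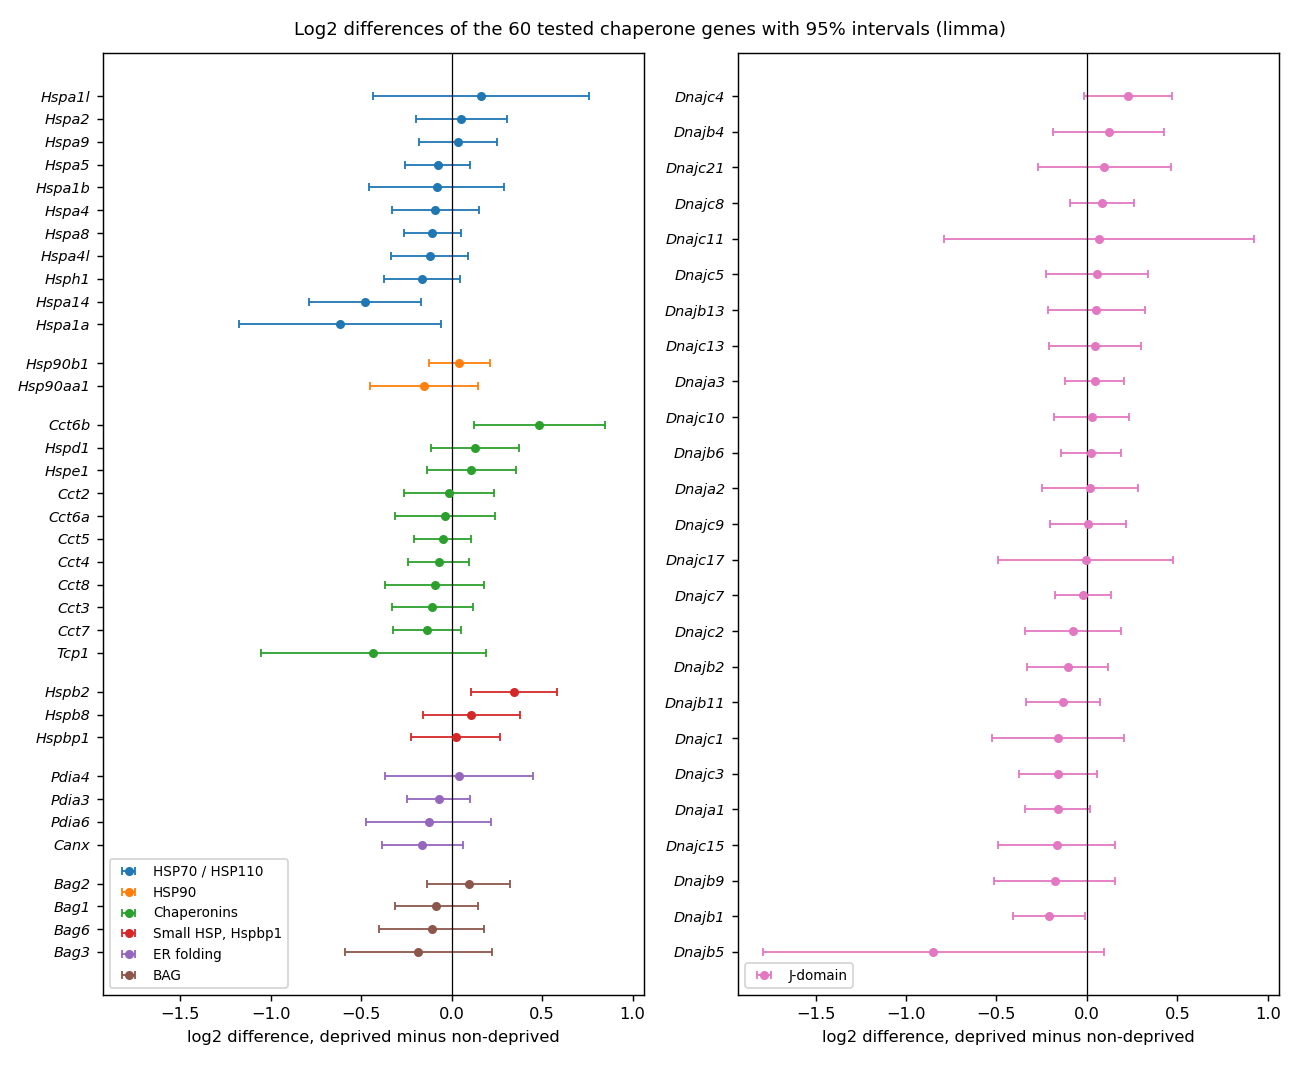
Each point is the log2 difference (deprived minus non-deprived, x axis) of 1 of the 60 tested genes (y axis), coloured by role, with its 95% interval from limma. Most intervals cross 0; those of Hspa1a, Hspa14 and Dnajb1 lie below it and those of Hspb2 and Cct6b above it, and Dnajb5 has a wide interval from -1.79 to 0.10.

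Some promoters of these genes carry the letters by which the 2 stress responses are known. They are shown because the stress-inducible members are described as groups below. RefSeq promoter windows of 300 bases (250 before to 50 after the start site, build GRCm38.p6) were found for 58 of the 66 genes. HSF1 binds inverted repeats of the unit GAA, so GAANNTTC and TTCNNGAA were searched as 2 units and GAANNTTCNNGAA as 3 units, on both strands; every match of 3 units also contains matches of 2. The 2-unit element occurred in 15 members (25.9%) and in 17.0% of all 27025 genes with a window, and the 3-unit element in 4 members (6.90%: Dnajb6, Hspd1, Hspe1 and Hsph1) and in 0.662% of all genes. Among the HSF1 targets described below, Dnajb1 had no match, and Hsp90aa1 and Hspa8 had no window. In the following windows, written 5′ to 3′ in the direction of the gene, capitals mark the heat shock elements.
Hspa1a, chr17:34972213-34972300, minus strand: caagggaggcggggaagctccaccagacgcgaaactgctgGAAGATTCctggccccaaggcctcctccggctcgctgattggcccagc
Dnaja1, chr4:40722304-40722391, plus strand: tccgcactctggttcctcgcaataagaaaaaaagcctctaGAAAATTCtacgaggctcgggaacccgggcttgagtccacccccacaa
Hspb1, chr5:135887762-135887869, plus strand: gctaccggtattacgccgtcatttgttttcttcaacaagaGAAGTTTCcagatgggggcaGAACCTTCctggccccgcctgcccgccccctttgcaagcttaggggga
Hspd1, chr1:55088019-55088116, minus strand: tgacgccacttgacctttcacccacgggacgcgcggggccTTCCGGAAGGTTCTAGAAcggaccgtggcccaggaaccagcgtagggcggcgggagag
Dnajb6, chr5:29735812-29735897, plus strand: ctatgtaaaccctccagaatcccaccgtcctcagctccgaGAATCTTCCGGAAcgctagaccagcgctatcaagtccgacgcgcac

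Hspa1a and Dnaja1 hold 1 such element in their windows and Hspb1 holds 2 apart from each other, whereas in Hspd1 and Dnajb6 the elements run together. Hspd1 and Hspe1, which encode mitochondrial HSP60 and its lid HSP10, lie head to head: their closest windows share 285 bases, and the element of Hspd1 is also that of Hspe1 read from the other strand. The upstream windows of Hspa1a and its near-identical neighbour Hspa1b agree at 247 of 250 bases (98.8%), and the stretch shown for Hspa1a is the same in Hspa1b. Of the 14 tested genes with a 2-unit element, 8 lay below 0 and 6 above, with a median of -0.03, and of the 4 with a 3-unit element 1 lay below 0 and 3 above.

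The ER stress response element, to which ATF6 binds together with NF-Y, was searched on both strands as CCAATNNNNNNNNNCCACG. It occurred in 6 members (10.3%: Calr, Canx, Dnajc3, Hsp90b1, Hspa5 and Pdia6) and in 0.137% of all genes. Capitals mark the element in 4 of these windows.
Hspa5, chr2:34771985-34772083, plus strand: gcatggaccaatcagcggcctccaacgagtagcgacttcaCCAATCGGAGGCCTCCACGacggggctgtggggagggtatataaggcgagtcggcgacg
Canx, chr11:50325760-50325858, minus strand: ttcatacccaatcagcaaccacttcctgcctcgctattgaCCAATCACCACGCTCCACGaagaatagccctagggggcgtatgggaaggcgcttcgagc
Pdia6, chr12:17266451-17266549, plus strand: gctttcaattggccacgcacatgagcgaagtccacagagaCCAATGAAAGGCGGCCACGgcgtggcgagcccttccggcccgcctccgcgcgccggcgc
Dnajc3, chr14:118937787-118937885, plus strand: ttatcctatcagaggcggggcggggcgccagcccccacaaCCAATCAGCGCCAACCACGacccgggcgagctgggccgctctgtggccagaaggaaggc

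Of the 5 tested genes with the element, 4 lay below 0 and Hsp90b1 above, with a median of -0.13. The ER stress genes Dnajb9, Dnajb11, Pdia3 and Pdia4, described below, had no match. A match is a description of these letters only.

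The HSP70 and HSP110 genes numbered 11, all tested, of which 8 lay below 0, with a median of -0.09. At an unadjusted p under 0.05, 2 of them (18.2%) were lower and none was higher, where 2.36% of all tested probe sets were lower. These were Hspa1a and Hspa14, of which Hspa14 passed the filter through the non-deprived arrays, where it was higher. Hspa1a encodes the classical stress-induced HSP70. Its signals on deprived replicates 1 to 5 were 322.5, 221.7, 380.6, 124.2 and 420.4, and on non-deprived replicates 1 to 5 they were 448.4, 298.6, 427.2, 490.6 and 490.4. The deprived arrays spread widely, with replicates 2 and 4 below every non-deprived array and replicates 1, 3 and 5 inside the non-deprived range. The means were 294 ± 121 and 431 ± 78.9 (SD, n = 5 each), a log2 difference of -0.62 ± 0.26 (SE; 95% interval -1.18 to -0.06; limma unadjusted p = 0.0331, adjusted p = 0.992). Without deprived replicate 4 the difference was -0.36. The residual SD of this probe set, 0.513 log2 units, was higher than that of 96.3% of tested probe sets.

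Hspa1b encodes nearly the same protein, and which of the transcripts each probe set detects is uncertain. Its signals were 150.1, 126.3, 83.7, 122.2 and 117.7 on the deprived arrays and 117.6, 113.2, 126.9, 116.0 and 162.7 on the non-deprived arrays, so the groups overlapped throughout. The log2 difference was -0.08 ± 0.17 (SE; 95% interval -0.46 to 0.29), and it was 0.024 without deprived replicate 3 and -0.16 without deprived replicate 1.

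Hspa14 encodes an HSP70 relative that forms the ribosome-associated complex with Dnajc2. Its deprived signals were 104.1, 105.6, 93.8, 120.8 and 98.5, and its non-deprived signals 133.4, 149.5, 147.9, 177.3 and 152.9. Every deprived array lay below every non-deprived array. It was the only tested member probe set with this pattern in the lower direction, where 0.47% of all tested probe sets show it. Its mean over the 10 arrays was 128, near the lowest of any tested member, 124. With a deprived mean of 105 and a non-deprived mean of 152, it passed the filter through the non-deprived arrays. The log2 difference was -0.48 ± 0.14 (SE; 95% interval -0.79 to -0.17; limma unadjusted p = 0.00487, adjusted p = 0.992), and the means differed by -31.3%. Leaving out any single array kept the difference between -0.53 and -0.43. Its partner Dnajc2 had a difference of -0.08 ± 0.12 (SE).

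Hspa8, the constitutive cytosolic HSP70, had deprived signals of 6894, 6772, 6476, 5700 and 6519 and non-deprived signals of 7124, 6693, 6582, 7561 and 6865. Deprived replicate 4 was the lowest array and non-deprived replicate 4 the highest, and the groups overlapped. The means were 6472 ± 466 and 6965 ± 391 (SD, n = 5 each), and the log2 difference was -0.11 ± 0.07 (SE; 95% interval -0.26 to 0.05), or -0.062 without deprived replicate 4. The HSP110 exchange factor gene Hsph1 had deprived signals of 4241, 4210, 5695, 4483 and 4271 and non-deprived signals of 4892, 5315, 5885, 4820 and 4681. Only deprived replicate 3 reached into the non-deprived range, and the log2 difference was -0.16 ± 0.10 (SE). Of the remaining genes, the ER member Hspa5 (BiP) had -0.08 ± 0.08, the mitochondrial member Hspa9 0.03 ± 0.10, the testis-rich Hspa2 0.05 ± 0.12 and Hspa4l, another HSP110 gene, -0.12 ± 0.10. Hspa1l had the highest difference of the HSP70 and HSP110 genes, 0.16 ± 0.28.

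The inducible and the constitutive cytosolic HSP70 were compared within each array as Hspa1a minus Hspa8 in log2 units, which shows unequal change and not which gene changed. The values were -4.35, -4.84, -4.03, -5.35 and -3.90 on the deprived arrays and -3.94, -4.41, -3.90, -3.90 and -3.76 on the non-deprived arrays. The same deprived arrays, replicates 2 and 4, lay below the lowest non-deprived value. The group difference was -0.51 (two-sided exact permutation p = 0.0952 over 252 assignments, n = 5 each; the smallest p possible is 0.00794), and it ran from -0.66 to -0.30 when each array was left out.

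**Figure D2:**
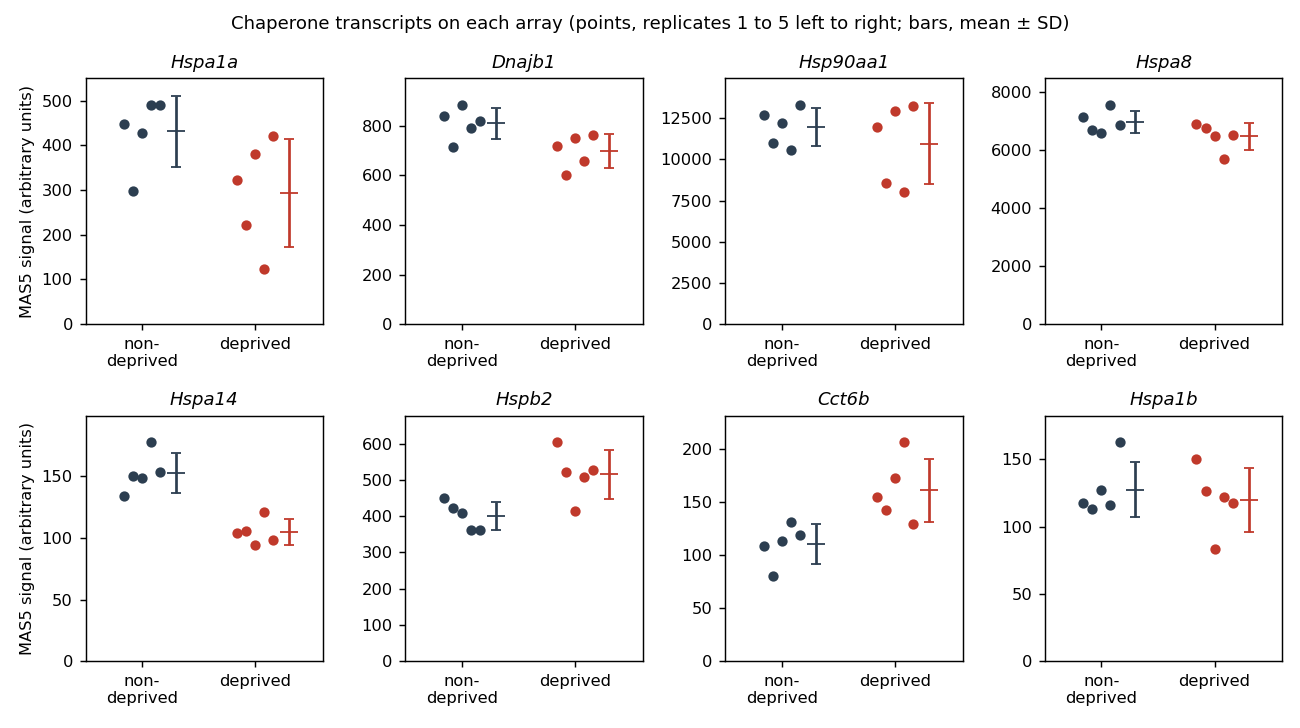
MAS5 signals (y axis, arbitrary units, from 0) of 8 chaperone genes on each non-deprived (dark) and deprived (red) array, with points for replicates 1 to 5 from left to right and bars for the mean ± SD of 5 arrays. Among these 8 genes the groups are apart only for Hspa14; for Hspa1a, deprived replicates 2 and 4, at 221.7 and 124.2, lie below all non-deprived arrays.

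Of the HSP90 genes 2 were measured. Hsp90aa1, the stress-inducible cytosolic HSP90, had deprived signals of 11960, 8555, 12913, 8047 and 13270 and non-deprived signals of 12710, 10997, 12230, 10553 and 13319. Deprived replicates 2 and 4 were again the lowest arrays, and the other deprived arrays lay within the non-deprived range. The log2 difference was -0.15 ± 0.14 (SE; 95% interval -0.45 to 0.14), and it was -0.050 without deprived replicate 4 and -0.072 without deprived replicate 2. Hsp90b1 (GRP94), the HSP90 of the ER, had one of 0.04 ± 0.08 (95% interval -0.12 to 0.21).

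The J-domain genes were the largest group, with 27 genes on the array and 25 tested. They divided evenly, with 12 below and 13 above 0 and a median of 0.0062. At an unadjusted p under 0.05, 1 (4%) was lower, against 2.36% of all tested probe sets. That gene was Dnajb1, which encodes HSP40, the stress-induced partner of the cytosolic HSP70s. Its deprived signals were 717.2, 603.2, 752.6, 658.3 and 763.9, and its non-deprived signals 838.5, 716.0, 885.4, 792.2 and 819.1. Deprived replicates 2 and 4 lay below all non-deprived arrays, as with Hspa1a, and the other deprived arrays lay between the lowest and the second lowest non-deprived array. The log2 difference was -0.21 ± 0.09 (SE; 95% interval -0.41 to -0.01; limma unadjusted p = 0.0411, adjusted p = 0.992), and the means differed by -13.7%.

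Dnaja1, a farnesylated partner of Hspa8, had deprived signals of 5272, 4777, 5746, 4804 and 5267 and non-deprived signals of 6079, 5598, 6551, 5096 and 5632. Its log2 difference was -0.16 ± 0.08 (SE; unadjusted p = 0.0745 in limma), and deprived replicate 3 and non-deprived replicate 4 kept the groups from separating. Dnajb6, which suppresses aggregation of polyglutamine proteins, had a difference of 0.02 ± 0.08, and its sign turned without deprived replicate 3 (-0.02) and without non-deprived replicate 5 (-0.0049). The synaptic vesicle protein gene Dnajc5 (cysteine string protein) had 0.06 ± 0.13, and Dnaja3, a mitochondrial J protein, 0.04 ± 0.07. By class, 5 of the 8 tested Dnajb genes lay below 0 (median -0.12), 1 of 3 Dnaja genes (median 0.02) and 6 of 14 Dnajc genes (median 0.02).

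A pair of J-domain genes stood out once their values were seen. Dnajc4 had deprived signals of 218.8, 245.5, 225.8, 217.7 and 208.1 and non-deprived signals of 205.3, 196.1, 168.8, 176.3 and 196.2. It was the one tested member probe set with every deprived array above every non-deprived array, a pattern that 0.483% of all tested probe sets show (0.953% in either direction), and its log2 difference was 0.23 ± 0.11 (SE; limma unadjusted p = 0.0642). Under quantile normalization its groups overlapped. Dnajb5 had deprived signals of 390.9, 35.7, 189.0, 157.9 and 62.6 and non-deprived signals of 207.0, 161.9, 368.7, 285.3 and 226.2. Both the highest and the lowest array were deprived, and its difference of -0.85 ± 0.44 (SE; limma unadjusted p = 0.0746) came with a residual SD of 0.884, higher than that of 99.8% of tested probe sets.

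The chaperonins comprised 9 genes of the cytosolic CCT ring, which folds actin and tubulin, and the mitochondrial pair Hspd1 and Hspe1. All were tested. Of the CCT genes 8 lay below 0 (88.9%, against 48.0% of all tested probe sets) and 1 above, with a median of -0.07. The one above was Cct6b, a paralog of Cct6a known from testis. Its deprived signals were 154.2, 142.5, 172.3, 206.1 and 129.5, and its non-deprived signals 108.1, 80.6, 112.9, 131.3 and 118.7. Only deprived replicate 5 fell below the highest non-deprived array. The means were 161 ± 29.8 and 110 ± 18.7 (SD, n = 5 each), a log2 difference of 0.48 ± 0.17 (SE; 95% interval 0.12 to 0.85; limma unadjusted p = 0.0126, adjusted p = 0.992). Cct6a, the ring subunit of most tissues, had -0.04 ± 0.13, on a probe set of a sequence family. Over all 11 chaperonins, the median deviation from each gene's mean over 10 arrays was taken for each array. It ran from -0.07 to 0.20 on the deprived arrays and from -0.05 to 0.07 on the non-deprived arrays. Deprived replicate 1 was the highest, and the groups overlapped.

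The other CCT subunits had small differences. Cct5 had -0.05 ± 0.07 (SE), Cct4 -0.07 ± 0.08 and Cct7 -0.14 ± 0.09. Tcp1, the founding subunit, had -0.43 ± 0.29, with deprived signals of 326.1, 250.2, 296.7, 114.0 and 92.0 against 251.7, 261.6, 207.5, 307.3 and 320.2. Its deprived replicates 4 and 5 were the lowest of all arrays and deprived replicate 1 the highest, which gives the wide error.

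The mitochondrial chaperonins lay slightly above 0. Hspd1 had deprived signals of 4433, 5292, 4860, 5041 and 3833 and non-deprived signals of 4495, 4617, 3261, 4462 and 4663, a log2 difference of 0.13 ± 0.11 (SE; 95% interval -0.11 to 0.37). Hspe1 had deprived signals of 880.1, 908.2, 809.4, 1132 and 951.6 and non-deprived signals of 892.5, 961.0, 674.1, 916.6 and 895.0, a difference of 0.11 ± 0.11 (95% interval -0.14 to 0.35). Non-deprived replicate 3 was the lowest array for both genes, and without it the differences were 0.033 for Hspd1 and 0.022 for Hspe1. The deviations of the pair from their group means correlated with a Pearson r of 0.59 (exact permutation p = 0.12) and a Spearman rho of 0.56 (exact permutation p = 0.0931) over 10 arrays, and r was 0.32 without the 2 arrays farthest from the median of Hspd1, deprived replicate 5 and non-deprived replicate 3. This correlation was added after the values were seen.

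Of the small heat shock proteins and the HSP-binding protein Hspbp1, 3 of 4 genes were tested, and all 3 lay above 0, with a median of 0.11. Hspb2, a small heat shock protein known from muscle, had deprived signals of 604.0, 522.8, 413.7, 506.9 and 527.1 and non-deprived signals of 450.1, 423.5, 408.4, 361.1 and 361.4. All but 1 of the deprived arrays, replicate 3, lay above the highest non-deprived array. The means were 515 ± 67.9 and 401 ± 39.2 (SD, n = 5 each), a log2 difference of 0.34 ± 0.11 (SE; 95% interval 0.10 to 0.58; limma unadjusted p = 0.0081, adjusted p = 0.992), or 28.4% higher. This probe set is marked as matching a group of similar sequences, and the second probe set of Hspb2 was below the filter, with means of 15.7 and 12.7. Cryab, the small heat shock gene that adjoins Hspb2, had a difference of 0.03 ± 0.11, on a probe set of a sequence family.

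Hspb8, which works with Bag3 in selective autophagy, had a difference of 0.11 ± 0.13 (SE). Hspbp1, an exchange factor of HSP70 measured by a probe set of a sequence family, had 0.02 ± 0.11, and its sign turned in 4 of the 10 fits that left out 1 array. Hspb1 (HSP25), a stress-induced small heat shock protein, was below the filter, with signals from 13.2 to 80.2 on the deprived arrays and from 14.2 to 58.8 on the non-deprived arrays. Bag3, a stress-induced co-chaperone, had a difference of -0.18 ± 0.19. The other BAG genes were Bag2 at 0.09 ± 0.11, Bag6 at -0.11 ± 0.14 and Bag1 at -0.09 ± 0.11, and none of the 4 reached an unadjusted p of 0.05.

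Of the lectin chaperones and disulfide isomerases of the ER, 4 of 6 genes were tested, 3 of them below 0, with a median of -0.10 and none at an unadjusted p under 0.05. Canx (calnexin), which holds glycoproteins until they fold, had deprived signals of 972.4, 830.4, 912.4, 736.9 and 933.7 and non-deprived signals of 911.6, 899.7, 1207, 961.4 and 943.9. Deprived replicates 2 and 4 lay below every non-deprived array and non-deprived replicate 3 above every deprived array, while the other arrays overlapped. The log2 difference was -0.16 ± 0.10 (SE), and it was -0.088 without non-deprived replicate 3 and -0.10 without deprived replicate 4. Pdia3, the isomerase that works with calnexin, had -0.07 ± 0.08, and Pdia4 had 0.04 ± 0.19. The 3 tested probe sets of Pdia6, another isomerase, differed in sign: the brightest had -0.13 ± 0.16, a second -0.27 ± 0.11 (limma unadjusted p = 0.0326) and the third 0.01 ± 0.16. The brightest rested on single arrays, at -0.0020 without deprived replicate 2 and -0.25 without non-deprived replicate 2. On the second, the deprived signals were 297.4, 338.9, 376.6, 270.7 and 289.7 against 349.4, 378.3, 440.6, 359.6 and 375.1, with deprived replicate 3 inside the non-deprived range.

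Such disagreement was common. Of 13 genes with several tested probe sets, the signs differed in 10 and were the same in Cct5, Dnajb9 and Hspd1. Hspa4, an HSP110 gene, had 4 tested probe sets with differences from -0.31 to 0.04, and another below the filter had 76.5 to 138.9 on the deprived arrays and 35.0 to 76.6 on the non-deprived arrays. Counted over all 79 tested member probe sets, 4 were lower and 2 higher at an unadjusted p under 0.05 (7.59%).

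The members known as HSF1 targets were set against those known to respond to ER stress. Of the 10 tested HSF1 targets (Hspa1a, Hspa1b, Hsp90aa1, Hsph1, Dnajb1, Hspa8, Dnaja1, Bag3, Hspd1 and Hspe1), 8 lay below 0 (80%, against 48.0% of all tested probe sets), with a median of -0.16, and 2 of the 10 (20%, against 2.36%) were lower at an unadjusted p under 0.05. Each array's median deviation of these 10 genes was -0.04, -0.19, 0.04, -0.14 and -0.0073 on the deprived arrays and lay between 0.02 and 0.08 on the non-deprived arrays. Deprived replicates 2 and 4 were thus the low arrays of the list, and deprived replicate 3 lay inside the non-deprived range. The 2 lower genes, Hspa1a and Dnajb1, did not reach an unadjusted p of 0.05 in limma without deprived replicate 4. Of the 9 tested ER stress genes, 7 lay below 0 with a median of -0.13 and none reached an unadjusted p of 0.05. Their array medians ran from -0.15 to 0.03 in deprived cortex, lowest in replicate 2, and from -0.04 to 0.16 in non-deprived cortex, highest in replicate 3. The J-domain proteins of the ER, Dnajb9, Dnajb11 and Dnajc3, had differences of -0.18 ± 0.16, -0.13 ± 0.10 and -0.16 ± 0.10 (SE). These lists were chosen with earlier results of the data known, and their counts describe the lists only.

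**Figure D3:**
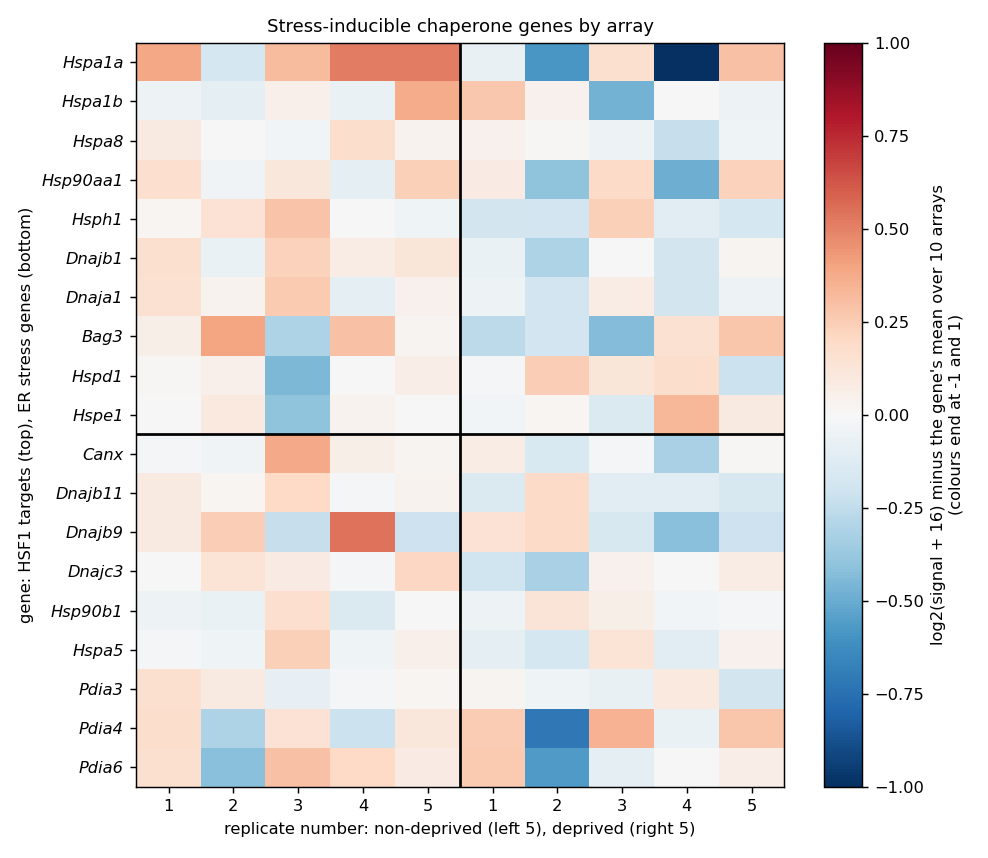
Colours give log2(signal + 16) minus the gene's mean over 10 arrays for the tested HSF1 targets (top rows) and ER stress genes (bottom rows) on the 5 non-deprived (left) and 5 deprived (right) arrays. Hspa1a is darkest blue on deprived replicates 2 and 4, where Hsp90aa1 and Dnajb1 are also blue and Hspd1 is pale red; Hspd1 and Hspe1 are bluest on non-deprived replicate 3.

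How the inducible genes varied together was measured as correlations of deviations from the group means over the 10 arrays, for Hspa1a against 13 genes. The closest was Hsp90aa1, with a Pearson r of 0.86 (exact permutation p = 0.0101, adjusted p = 0.132) and a Spearman rho of 0.83 (exact permutation p = 0.0277, adjusted p = 0.279). Without deprived replicate 4 and non-deprived replicate 2, whose deviations of Hspa1a were the farthest from the median, r was 0.83, and without deprived replicates 2 and 4, the farthest by their signals, r was 0.47, so part of this relation rests on those deprived arrays. Dnajb1 had an r of 0.70 (exact permutation p = 0.0378, adjusted p = 0.164) and a rho of 0.68 (exact permutation p = 0.0643, adjusted p = 0.279), and r was 0.79 and 0.71 after the same omissions. Hspb1, below the filter, had an r of 0.73 (exact permutation p = 0.0335, adjusted p = 0.164) and a rho of 0.66 (exact permutation p = 0.0488, adjusted p = 0.279), which dropped to an r of 0.27 and 0.40. Hspa8 had an r of 0.64 (exact permutation p = 0.1, adjusted p = 0.322) and a rho of 0.52 (exact permutation p = 0.138, adjusted p = 0.359), and r was -0.15 and 0.30 after the omissions, so that the relations of Hspb1 and Hspa8 rest on those arrays. No correlation passed an adjusted p of 0.05. The r of the other members ran from -0.54 for Hspe1 and -0.41 for Hspd1 through -0.10 for Hspa1b to 0.43 for Dnaja1. The activity-regulated genes Fos and Junb had r of -0.33 and 0.08 and the stress gene Ddit3 0.07.

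**Figure D4:**
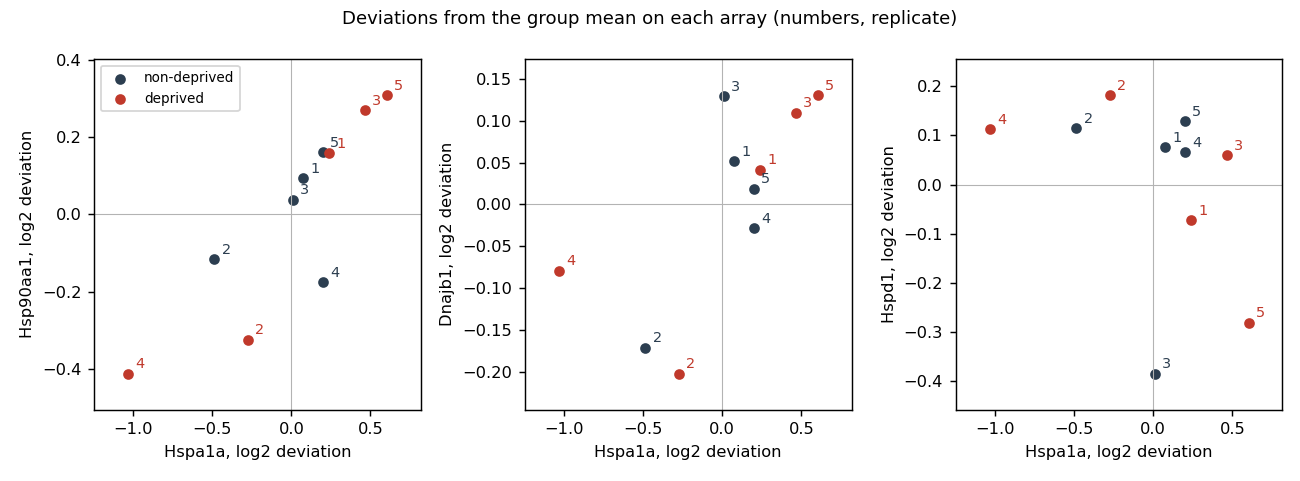
Log2 deviations from the group mean of Hsp90aa1, Dnajb1 and Hspd1 (y axes) against those of Hspa1a (x axes) on the 10 arrays, dark for non-deprived and red for deprived, numbered by replicate. Deprived replicate 4 and non-deprived replicate 2 are lowest for Hspa1a; r is 0.86 for Hsp90aa1, 0.70 for Dnajb1 and -0.41 for Hspd1.

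Co-chaperones and regulators outside the set gave a similar picture, with 39 of 46 genes tested, 22 below 0 and a median of -0.02. At an unadjusted p under 0.05, 2 of them (5.13%) were lower and none was higher. Of all tested probe sets, 2.36% were lower at this p and 4.79% passed it in either direction. None of the partners passed the adjusted threshold. Ddit3 (CHOP), a transcription factor of the unfolded protein response, had deprived signals of 301.7, 183.5, 295.7, 283.9 and 225.5 and non-deprived signals of 324.9, 360.3, 394.2, 436.5 and 364.5, with no overlap, as for 0.47% of all tested probe sets in this direction. Its log2 difference was -0.53 ± 0.14 (SE; limma unadjusted p = 0.00215, adjusted p = 0.780). Atf6, the ER-membrane factor that activates the ER stress response element, had deprived signals of 343.6, 355.3, 378.9, 219.5 and 250.6 and non-deprived signals of 396.1, 384.8, 432.8, 373.9 and 381.9. Only deprived replicate 3 reached into the non-deprived range, and the difference was -0.36 ± 0.14 (SE; limma unadjusted p = 0.0245, adjusted p = 0.992).

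Of the ER partners 11 of 16 lay below 0 (median -0.03), of the mitochondrial ones 3 of 5 (median -0.02) and of the cytosolic ones 7 of 17 (median 0.03). Xbp1 and Atf4, the other transcription factors of the unfolded protein response measured, had differences of -0.05 ± 0.10 and -0.04 ± 0.10 (SE). Stip1 (HOP), which links HSP70 to HSP90, had -0.05 ± 0.16, and St13, the HSP70-interacting protein HIP, -0.22 ± 0.13. The heat shock factor genes Hsf2 and Hsf4 were below the filter, and Hsbp1, which binds heat shock factors, had -0.10 ± 0.09.

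The tissue was checked against markers of the cells that cortex and its neighbours hold. Neuronal markers (7 of 8 measured, all tested) summed to between 30301 and 34810 on the deprived arrays and between 31760 and 35032 on the non-deprived arrays, and no marker of any list was at 0 on any array. Sums also overlapped for astrocytes (16014 to 17421 and 16384 to 18218), oligodendrocytes (17136 to 23723 and 16037 to 23062), microglia (6062.5 to 6290 and 5387 to 6264), vascular cells (1945.5 to 2569 and 1925 to 2561), choroid plexus (649 to 837 and 724 to 917) and erythrocytes (3487 to 7949 and 3782 to 5074). Of all these markers, 1 of 5 tested astrocyte genes reached an unadjusted p of 0.05, and it was higher. Only 1 of 3 measured choroid plexus markers was tested, as Ttr and Kl were below the filter. The oligodendrocyte marker Cnp was below it too. Array medians ran from 191 to 209 and the ratio of actin 3′ to 5′ signal, a measure of RNA quality, from 1.43 to 1.90, without separating the groups. In whole tissue, fewer cells of a type and less RNA per cell cannot be told apart.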

How the data were processed

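The deposited values are MAS5 intensities, 1 per probe set and array; MAS5, which summarises perfect-match and mismatch probes, is named per the submitters' processing notes, with no version or scaling target in the sources used here. In the authors' deposited intensities the mean without the lowest and highest 2% of probe sets lay between 500.2 and 500.3 on every array, so all differences are relative to an array's average. Groups came from the sample titles. Of 12488 probe sets, 66 controls were left out. Symbols came from the platform annotation, updated through Entrez IDs (10817 of 10833 single symbols matched), and no member symbol changed.

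Signals were taken as log2(signal + 16), which understates changes of dim probe sets. Probe sets whose mean lay below the 40th percentile were not tested, which left 7453. The groups were compared, deprived minus non-deprived, with lmFit and eBayes (intensity trend, no covariate) of limma 3.58.1 in R 4.3.3, and p-values were Benjamini-Hochberg adjusted over all 7453. No detection calls were used. Precision is limited by the number of arrays. Single values were tested with exact two-sided permutations in Python 3.11.15, correlations over all 14400 pairings within groups. The scripts were tested on simulated data.

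Named genes were members with an unadjusted p under 0.05, the 2 brightest of each role, all measured HSF1 targets, members with probe sets that disagree in sign around such a p, and partners with such a p or of the heat shock factors. Others were chosen after their values were seen: Dnajc4, Dnajb5, Tcp1, Hspa1l, Hspa2, Hspa4, Hspa4l, Hspa5, Hspa9, Cct4, Cct6a, Cct7, Pdia4, Bag1, Hspb8, Dnaja3, Dnajb9, Dnajb11, Dnajc2, Dnajc3, Dnajc5, Cryab, Xbp1, Atf4, Stip1 and St13. The members and lists were chosen with earlier results of these data known. Promoter sequences are RefSeq's, build GRCm38.p6; the arrays carry no build.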

Additional observations from a re-analysis of the deposited data

Results flagged for a closer look

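Among 56 groups of 5 arrays (28 named genes in each condition), 5 held an array set apart from the other 4 by Dixon's test at 95%, where chance gives about 1 in 20. Non-deprived replicate 3 accounted for 3 of them. It had the lowest non-deprived signal of Hspd1 (3261, next 4462) and of Hspe1 (674.1, next 892.5), and the highest of Canx (1207, next 961.4). That array also had the highest actin 3′ to 5′ ratio, 1.90; its part in these values was not tested. Without it the log2 difference of Hspd1 was 0.033 in place of 0.13, that of Hspe1 0.022 in place of 0.11 and that of Canx -0.088 in place of -0.16. Non-deprived replicate 5 had the highest non-deprived signal of Hspa1b (162.7, next 126.9). Deprived replicate 3 had the highest deprived signal of Hsph1 (5695, next 4483).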

How the results depend on the processing

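No member passed an adjusted p of 0.05 in limma in any of the 18 alternatives, which were other pseudocounts (1 and 64), no filter or one at the 60th percentile, quantile normalization, median scaling, the actin ratio as a covariate, a replicate block and leaving out each of the 10 arrays, nor with eBayes without an intensity trend, which left 3 lower genes and gave 3 higher ones at an unadjusted p under 0.05. The 25 named tested genes gave 445 values over these alternatives, of which 438 kept their direction and 7, of 3 genes, did not. These were Hspbp1 without deprived replicate 1 (-0.033), 4 (-0.0024) or 5 (-0.028) and without non-deprived replicate 3 (-0.013), Hspa1b without deprived replicate 3 (0.024), and Dnajb6 without deprived replicate 3 (-0.020) or non-deprived replicate 5 (-0.0049). Leaving out each array gave -0.033 to 0.097 for Hspbp1, -0.16 to 0.024 for Hspa1b and -0.020 to 0.065 for Dnajb6. Among genes that kept their direction, differences also moved by over 1.5 times for Bag2 (0.026 to 0.17), Bag3 (-0.28 to -0.099), Bag6 (-0.23 to -0.021), Cct5 (-0.089 to -0.015), Hsp90b1 (0.010 to 0.089), Pdia3 (-0.11 to -0.035) and Hsbp1 (-0.15 to -0.046). The same held for Canx (-0.20 to -0.088), Hsp90aa1 (-0.23 to -0.050), Hspa1a (-0.77 to -0.36) and Hspa8 (-0.13 to -0.062). It also held for Hspd1 (0.033 to 0.20), Hspe1 (0.022 to 0.16) and Pdia6 (-0.25 to -0.0020). The correlation of Ddit3 with Hspa1a had an r of -0.016 under quantile normalization; the cause was not tested.

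The median difference of the members was -0.030 with no filter, which adds dim genes, and ran from -0.064 to -0.030 when each array was left out. With the filter at the 60th percentile, which did not test Hspa14 and Cct6b, 2 genes were lower and 1 higher at an unadjusted p under 0.05. In that fit 0 probe sets had groups that did not overlap in the lower and 0 in the higher direction. Under quantile normalization that count was 0 in the higher direction. Leaving out each array gave 1 to 5 lower and 2 to 3 higher genes at an unadjusted p under 0.05, and 1 to 3 lower and 1 to 2 higher probe sets without overlap. The lowest and highest counts of members past the adjusted threshold were 0 and 0.

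With the replicate block, 6 genes were lower at an unadjusted p under 0.05 in place of 3. The share of all tested probe sets was not counted under this block or the other alternatives, so these counts have no background beside them. Same-numbered samples of the 2 groups had deviations that correlated at 0.02 to 0.23, over 0.1 in 4 of 5 pairs, and 9 of 10 samples correlated best with their own number, a hint from the data and not from the design, so the numbers were not taken as pairs. With same-numbered samples as pairs, the difference of Hspa1a minus Hspa8 had an exact two-sided sign-flip p of 0.0625, the smallest that 5 pairs allow. The planned comparison of Hsp90aa1 with Hsp90ab1 was not run, because no probe set with that single symbol was among the members.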
